A study of Arabidopsis thaliana with 32 samples.

Results

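AT4G25250 and AT5G51520 encode proteins of the plant invertase/pectin methylesterase inhibitor superfamily in *Arabidopsis thaliana*. They are the 2 genes described here, out of 28283 measured genes and probe sets without a single gene name. Each was taken through the 1 probe set that names it in the array annotation, 13473326 for AT4G25250 and 13513605 for AT5G51520. The annotation and the RefSeq table used here give both genes by locus name only, so the family is background knowledge. Both were picked from earlier results of the same arrays. AT4G25250 had been named for its average under NaCl and for the difference between its ethylene glycol slope and the slopes of the other solutes. The value that led to AT5G51520 is not recorded in the sources used here. Its most extreme position in the present comparisons was for NaCl against sorbitol, so that comparison is treated as the one that chose it, a decision made after its values were seen. For both genes the solute against control values are therefore given as descriptions with standard errors (SE) and without p-values.

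The arrays hold whole roots of 16-day-old Columbia-0 wild-type plants grown in hydroponic solution and collected 15 min after transfer to fresh solution. The treated groups received NaCl at 25, 50, 75 or 100 mM, sorbitol at 50, 100 or 150 mM, polyethylene glycol 8000 (PEG) at 75, 100, 125 or 150 mM, or 50, 100, 150 or 200 mM ethylene glycol. The control group was moved to the same solution without a solute. All 16 groups shared the genotype and held 2 arrays each, 32 in all. The study asked how turgor and osmotic potential shape the early response of the root. Ethylene glycol passes into plant cells readily, whereas sorbitol and PEG mostly stay outside, and NaCl also adds ions.

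Pectin is the gel-like polysaccharide of the primary wall, and its main chain, homogalacturonan, is secreted with methyl esters on its sugar acids. Pectin methylesterases (PMEs) remove these esters in the wall. The freed acid groups can be bridged by calcium, which tends to stiffen the gel, or can expose the chain to polygalacturonases and pectate lyases, which cut it. Pectin methylesterase inhibitors (PMEIs) are small proteins that bind PMEs and block their active site. Many PMEs carry a related inhibitor-like domain in front of the enzyme, and invertase inhibitors belong to the same superfamily. In growing organs the balance of PMEs and PMEIs is known to bear on wall extensibility.

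AT4G25250 had its highest level in the control, and every dose of every solute lay below it. Sample titles numbered 17 to 32 hold 1 array of every group, as do those numbered 33 to 48, and these are here the first series and the second series. Over the control and 25, 50, 75 and 100 mM NaCl, the log2 expression of AT4G25250 was 5.21, 4.75, 4.40, 4.56 and 4.26 in the first series. In the second series the same groups gave 6.02, 5.45, 5.10, 5.03 and 5.0. All 8 NaCl arrays were thus below the control array of their own series, by differences of -0.46 to -1.02, where 5.71% of all genes had every NaCl array below, and most of the difference was already there at 50 mM.

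With sorbitol, over the control and 50, 100 and 150 mM, AT4G25250 read 5.21, 4.58, 4.49 and 4.22 in the first series. The second series gave 6.02, 5.42, 5.44 and 5.24. The first dose held the largest step in both series, and the highest dose was the lowest point. All 6 arrays were below their own control, as for 9.38% of all genes.

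Over the control and 75, 100, 125 and 150 mM PEG, the first series read 5.21, 4.41, 4.65, 4.38 and 4.07 for AT4G25250. The second series read 6.02, 5.76, 5.66, 4.87 and 4.86. At 150 mM PEG the distance from the control was nearly equal in both series, -1.14 in the first and -1.16 in the second. At 75 mM it was not: -0.80 against the first control array, -0.26 against the other. The dose of PEG is used as labelled. Such molar doses are very high for a polymer of that size, so the true scale is unknown.

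With ethylene glycol the highest dose was not the lowest point. Over the control and 50, 100, 150 and 200 mM, AT4G25250 read 5.21, 4.80, 4.42, 4.50 and 4.55 in the first series. In the second it read 6.02, 5.68, 5.23, 5.76 and 5.68. Both series were lowest at 100 mM, 0.79 below their control, and stood nearer to the control at 150 and 200 mM. The return was small in the first series, and the SE of a difference between group means was 0.18. With 1 array left out, the mean difference at 150 mM ran from -0.692 to -0.278. All 8 ethylene glycol arrays were below their own control, as for 4.61% of all genes.

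Across solutes, all 30 treated arrays read lower for AT4G25250 than the control array of their own series, with differences between -0.26 and -1.16 and a median of -0.715. Of all genes, 0.587% had all 30 treated arrays below their own control. This pattern belongs to the values that chose the gene and rests on 1 control array in each series, so nothing is read from it. Averaged over doses, the difference from control was -0.80 for NaCl (SE 0.14), -0.72 for sorbitol (SE 0.14), -0.78 for PEG (SE 0.14) and -0.54 for ethylene glycol (SE 0.14). Expressed as a level, AT4G25250 stood at 57.6% of control under NaCl, 60.9% under sorbitol, 58.1% under PEG and 68.9% under ethylene glycol. The largest difference at 1 dose was at 150 mM PEG, where the mean of both series was 45.1% of control. Whole roots were measured, so fewer cells that express the gene and less RNA per cell cannot be told apart.

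The group means of AT4G25250 fell into a long, even order below the control. The control mean was 5.62 (SD 0.57, n = 2) and the next group, 50 mM ethylene glycol, was at 5.24 (SD 0.62, n = 2). That gap of 0.375 was 2.12 times the SE of a difference between groups, 0.18. Every other neighbouring pair in the order differed by 0.16 or less, which is under 1 SE. The lowest means were 4.47 at 150 mM PEG, 4.63 at 125 mM PEG and 4.63 at 100 mM NaCl. Neighbours in a sorted order lie close by construction, so these gaps do not show whether groups further apart differ. The treated means ran from 5.24 to 4.47.

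**Figure D1:**
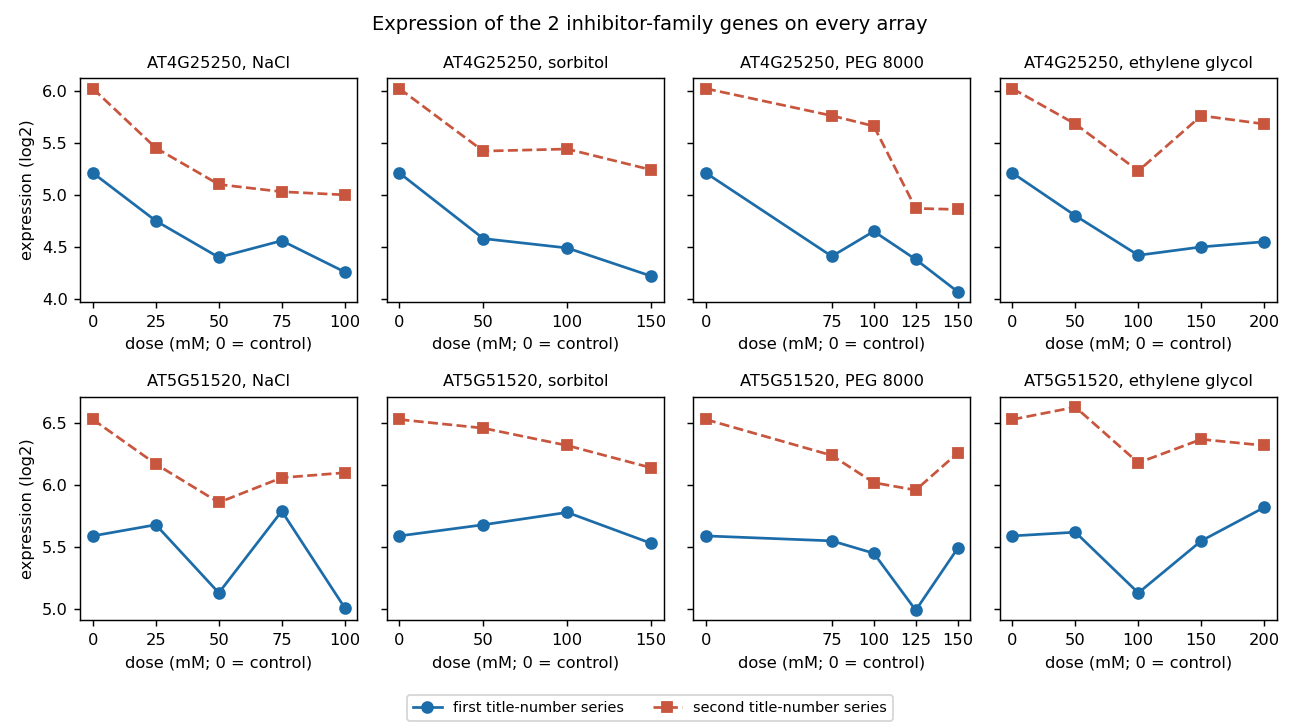
Expression (log2, y axis) of AT4G25250 (upper row) and AT5G51520 (lower row) against solute dose in mM (x axis, control at 0 mM), with 1 point per array and 1 line per title-number series. For AT4G25250 all 30 treated arrays lie below the control of their own series, and both genes dip at 100 mM ethylene glycol in both series.

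The slope over dose, with the control at 0 mM, gives the change per 100 mM of labelled dose. It is not a scale of equal osmolarity, and the dose ranges differ, up to 100 mM for NaCl and 200 mM for ethylene glycol. A change that comes mostly at the lower doses gives a slope nearer 0 over a wider range. Slopes of different solutes are therefore not directly comparable. For AT4G25250 the log2 change per 100 mM was -0.91 with NaCl (SE 0.16), -0.54 with sorbitol (SE 0.11), -0.76 with PEG (SE 0.11) and -0.22 with ethylene glycol (SE 0.08). When the control was left out of the fit line, the slopes became -0.55 for NaCl (SE 0.22), -0.27 for sorbitol (SE 0.18), -0.96 for PEG (SE 0.22) and -0.01 for ethylene glycol (SE 0.11). Without the series in the model the SE of these treated slopes was 0.74 for NaCl and PEG, 0.59 for sorbitol and 0.37 for ethylene glycol. The slopes use arrays behind the values that chose the gene, so nothing is read from their size against the SE. The ethylene glycol slope exceeded the mean slope of the other solutes by 0.51 (SE 0.09), which is the value the gene was chosen on. The same comparison was called for 0.113% of all genes in limma.

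Setting NaCl beside solutes of equal nominal osmolarity, with each NaCl counted as a pair of ions, gives the values side by side. At 25 mM NaCl the AT4G25250 difference from control was -0.515, with -0.615 at 50 mM sorbitol and -0.375 at 50 mM ethylene glycol. At 50 mM NaCl it was -0.865, with -0.65 at 100 mM sorbitol and -0.79 at 100 mM ethylene glycol. At 75 mM NaCl it was -0.82, with -0.885 at 150 mM sorbitol and -0.485 at 150 mM ethylene glycol. At 100 mM NaCl it was -0.985, with -0.50 at 200 mM ethylene glycol. Ethylene glycol lay nearer to the control than NaCl at each step, and most so at the highest. At 25 and 50 mM NaCl this distance was under the SE of a difference between groups, 0.18. AT4G25250 was chosen on its ethylene glycol slope against the other solutes, so nothing is read from this order.

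AT5G51520 stood nearer to the control than AT4G25250 under every solute average, and 3 of its treated groups had means above it. Over the control and 25, 50, 75 and 100 mM NaCl it read 5.59, 5.68, 5.13, 5.79 and 5.01 in the first series. The second series gave 6.53, 6.17, 5.86, 6.06 and 6.10. Doses of 50 and 100 mM were below the control in both series, whereas 25 and 75 mM were below it in the second series only.

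With sorbitol, over the control and 50, 100 and 150 mM, AT5G51520 read 5.59, 5.68, 5.78 and 5.53 in the first series. Its second series read 6.53, 6.46, 6.32 and 6.14. The series moved apart here: 2 of 3 doses were above the control in the first series and 0 of 3 in the second.

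For PEG, over the control and 75, 100, 125 and 150 mM, the AT5G51520 values were 5.59, 5.55, 5.45, 4.99 and 5.49 in the first series. The second series gave 6.53, 6.24, 6.02, 5.96 and 6.26. All 8 PEG arrays were below their own control, the lowest at 125 mM in both series and nearer to the control at 150 mM. Of all genes, 6.48% had all PEG arrays below their own control, so this is no rare pattern.

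Over the control and 50, 100, 150 and 200 mM ethylene glycol, AT5G51520 read 5.59, 5.62, 5.13, 5.55 and 5.82 in the first series. The second series read 6.53, 6.63, 6.18, 6.37 and 6.32. At 100 mM both series were lower than their control, with differences of -0.46 and -0.35, and the other doses lay within 0.23 of it. AT4G25250 also had its lowest ethylene glycol values at this dose. The arrays are the same for both genes, so the shared dip counts as 1 observation on that pair of arrays.

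Averaged over doses, AT5G51520 differed from the control by -0.34 for NaCl (SE 0.13), -0.075 for sorbitol (SE 0.13), -0.32 for PEG (SE 0.13) and -0.11 for ethylene glycol (SE 0.13). These correspond to 79.3%, 94.9%, 80.4% and 92.8% of the control level. Per 100 mM its slopes were -0.40 with NaCl (SE 0.14), -0.14 with sorbitol (SE 0.10), -0.24 with PEG (SE 0.10) and -0.03 with ethylene glycol (SE 0.07). Single arrays moved these values. With the second 100 mM NaCl array left out, the NaCl slope of AT5G51520 was -0.554, and with the first left out it was -0.254. Without control replicate 1 the sorbitol slope was -0.203 and the ethylene glycol average -0.215, and without control replicate 2 they were -0.0748 and -0.0005. In all, 23 of its 30 treated arrays were below the control of their own series. The group means ran from 6.13 at 50 mM ethylene glycol to 5.48 at 125 mM PEG, with the control at 6.06 in the fourth place. No neighbouring pair in this order differed by more than 0.10, against an SE of 0.16. Sorting makes such gaps small, so they say nothing of groups further apart.

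**Figure D2:**
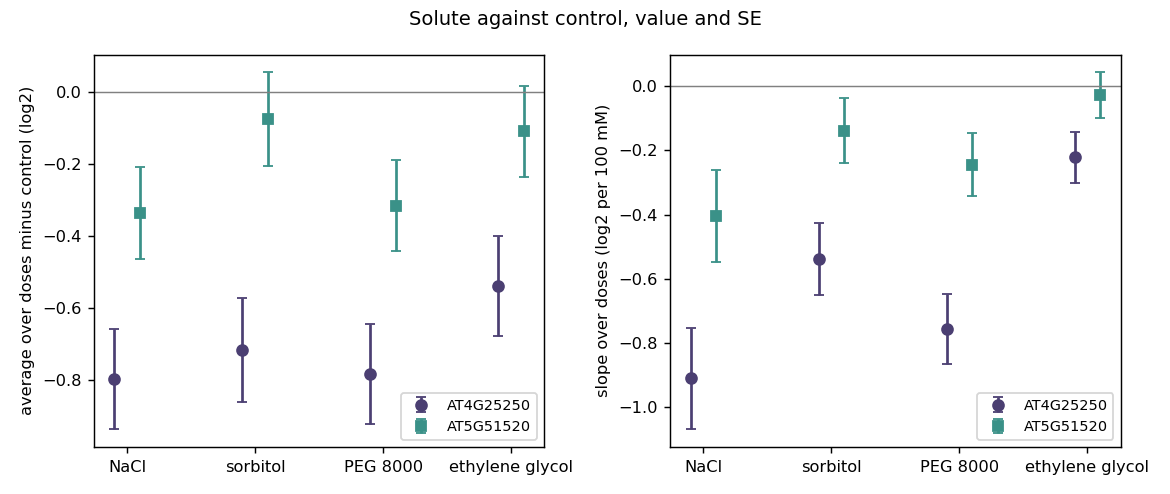
Average over doses minus control (left, log2) and slope over doses (right, log2 per 100 mM) for AT4G25250 (circles) and AT5G51520 (squares) by solute; bars are 1 SE of the fit with the title-number series as block. AT4G25250 lies lower than AT5G51520 under each solute, and ethylene glycol gives the slopes nearest 0 for both genes. Dose ranges differ between solutes, so their slopes are not directly comparable.

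NaCl, sorbitol and PEG were set against each other at the doses they share, to ask whether the level depended on the kind of solute at equal nominal dose. For AT4G25250 NaCl minus sorbitol over 50 and 100 mM was -0.29 (95% interval -0.55 to -0.04, adjusted p = 0.578, limma over all genes). NaCl minus PEG over 75 and 100 mM was -0.41 (interval -0.66 to -0.15, adjusted p = 0.244, limma). Sorbitol minus PEG over 100 and 150 mM was 0.04 (interval -0.22 to 0.29, adjusted p = 0.963, limma). None of these 3 passed the threshold of 0.05 after adjustment. These comparisons reuse arrays behind the values that chose AT4G25250, the NaCl arrays above all, so they are not independent of that choice. The shares of genes called were 0.244%, 0.325% and 0.0778%.

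For AT5G51520, NaCl minus sorbitol was -0.54 (SE 0.11), the comparison it was taken to be chosen on. At 50 and 100 mM it read 5.13 and 5.01 with NaCl, against 5.68 and 5.78 with sorbitol, in the first series. In the second series it read 5.86 and 6.10 with NaCl, against 6.46 and 6.32 with sorbitol. The NaCl arrays were the lower ones at both doses and in both series. Equal mM is not equal osmolarity, since each NaCl counts as a pair of ions. At equal nominal osmolarity the difference from control was -0.135 at 25 mM NaCl and 0.01 at 50 mM sorbitol. It was -0.565 at 50 mM NaCl and -0.01 at 100 mM sorbitol. The order was reversed at 75 mM NaCl, with -0.135 against -0.225 at 150 mM sorbitol. NaCl minus PEG was -0.08 (interval -0.31 to 0.16, adjusted p = 0.955, limma) and sorbitol minus PEG was 0.14 (interval -0.10 to 0.37, adjusted p = 0.78, limma). Neither passed the threshold, and both reuse NaCl or sorbitol arrays of the comparison it was taken to be chosen on.

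For both genes the series differed by more than any solute average did. AT4G25250 was higher in the second series in 16 of 16 groups, by 0.47 at 75 mM NaCl to 1.35 at 75 mM PEG. The mean difference of the second from the first series was 0.87 (SE 0.06, adjusted p = 1.7e-12, limma). AT5G51520 was also higher in 16 of 16 groups, by 0.27 at 75 mM NaCl to 1.09 at 100 mM NaCl, with a mean of 0.74 (SE 0.06, adjusted p = 6.82e-12, limma). Of all genes 62.8% differed between the series and 34.6% were higher in the second, so the direction was shared with a large part of the array. The size was not. The median difference over all genes was 0.06, and 98.49% of genes had a lower value than AT4G25250 and 97.31% than AT5G51520. What the title numbers stand for is not given in the labels. The p-values of both genes measure how evenly the gap repeats over the 16 groups, not the spread that further series would show. The residual SD of AT4G25250 was 0.17 with the series in the model and 0.64 without it, and for AT5G51520 these were 0.17 and 0.55. Without the series in the model the SE of the AT4G25250 averages was 0.47 for NaCl, PEG and ethylene glycol and 0.48 for sorbitol.

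The family and its target enzymes were described next, from hand-made lists of loci written with earlier results of these data known. Of 52 other listed PMEI-family genes, 44 were measured, and of 64 PMEs 47 were. For PMEI-family genes the median slope was 0.03 per 100 mM of NaCl, 0.06 of sorbitol, 0.14 of PEG and 0.00 of ethylene glycol. Over all genes the median slopes lay between -0.01 and 0.00. With PEG 36 of the 44 had a positive slope, and with ethylene glycol 22 of the 44. In limma 0 of the 44 passed for a slope, with or without the series block. At an unadjusted p under 0.05 there were 2 of the 44 for NaCl, 8 for sorbitol, 9 for PEG and 3 for ethylene glycol. The shares of all genes at that unadjusted level were 9.47% for the NaCl slope, 8.5% for sorbitol, 14.5% for PEG and 5.06% for ethylene glycol. All 44 had less negative slopes and averages than AT4G25250 under each solute, a place that its choice from all genes for a low value largely fixes. For AT5G51520, 1 of the 44 had a lower NaCl slope and 19 a lower ethylene glycol slope. Slopes were called for 1.09% of all genes with NaCl, 0.477% with sorbitol, 1.01% with PEG and 0.216% with ethylene glycol.

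1 of the 44 PMEI-family genes passed for an average. AT1G62770 rose under sorbitol by 0.57 (SE 0.12, 6 arrays against 2, adjusted p = 0.049, limma), a comparison in which 0.138% of all genes were called and 0.0601% were called higher. Averages were called for 0.209% of all genes under NaCl, 0.421% under PEG and 0.00707% under ethylene glycol. At an unadjusted p under 0.05 the PMEI-family averages counted 5 for NaCl, 4 for sorbitol, 8 for PEG and 2 for ethylene glycol, of 44 each. The shares of all genes at that unadjusted level were 8.81% for the NaCl average, 9.67% for sorbitol, 11.5% for PEG and 4.5% for ethylene glycol. In the first series it read 5.76, 5.73 and 5.51 at 50, 100 and 150 mM sorbitol, against 5.18 in the control. In the second series it read 5.26, 5.35 and 5.45, against 4.70 in the control. Every sorbitol array was above its own control, and so was each array of the other solutes. The second control array was the lowest of all 32 for this gene. The averages under NaCl, PEG and ethylene glycol were 0.41, 0.44 and 0.39 (adjusted p = 0.206, 0.107 and 0.749, limma). The call stood at the threshold. It was lost without the series block (adjusted p = 1) and in 25 of 32 fits that left out 1 array, with an adjusted p of 0.599 without control replicate 2.

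**Figure D3:**
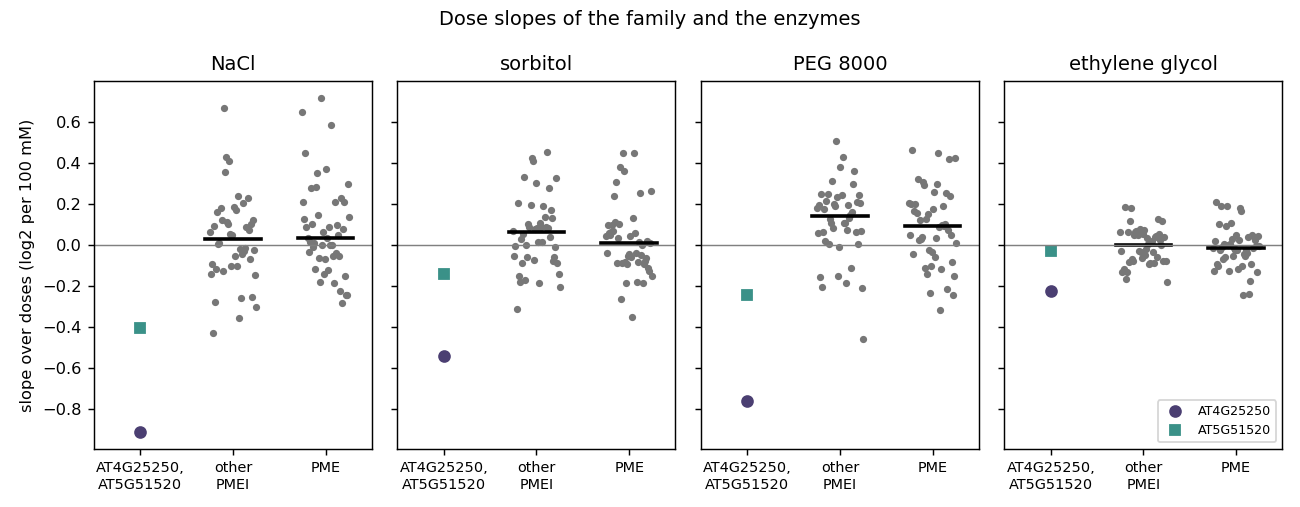
Slope over doses (log2 per 100 mM, y axis) of AT4G25250 and AT5G51520 (left), the 44 other PMEI-family genes (middle) and the 47 PMEs (right) in a panel for each solute; each point is a gene and each bar a median. AT4G25250 lies below all PMEI-family genes in each panel and below all PMEs except 2 in the ethylene glycol panel.

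Among the PMEs the median slopes were 0.04 for NaCl, 0.01 for sorbitol, 0.09 for PEG and -0.01 for ethylene glycol. With PEG 33 of the 47 PMEs had a positive slope, and with ethylene glycol 19 of the 47. More positive than negative slopes under PEG were thus not particular to the PMEI family. AT1G02810, a PME, rose with NaCl dose by 0.65 per 100 mM (SE 0.13, adjusted p = 0.00807, limma), where 0.891% of all genes were called higher. Over the control and 25, 50, 75 and 100 mM NaCl it read 6.27, 6.23, 6.16, 6.39 and 6.69 in the first series. The second series gave 6.26, 6.18, 6.34, 6.74 and 7.10. It stood near the control up to 50 mM and above it at 75 and 100 mM in both series. Its slopes were 0.04 for sorbitol, 0.20 for PEG and -0.01 for ethylene glycol, with adjusted p of 0.944, 0.303 and 0.999 (limma). The difference between its ethylene glycol slope and the mean of the others was -0.31 (SE 0.07) and did not pass (adjusted p = 0.0855, limma). Without the block the NaCl slope had an adjusted p of 0.845. Leaving out control replicate 2 gave 0.187, and leaving out NaCl 100 mM replicate 2 gave 0.116.

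No other PME passed for a slope, and 0 of the 47 passed for an average in limma, with or without the series block. Among the PMEs the unadjusted p was under 0.05 for 3, 8, 10 and 2 slopes and for 3, 6, 4 and 2 averages of 47, in the order NaCl, sorbitol, PEG and ethylene glycol. In the same order the shares of all genes were 9.47%, 8.5%, 14.5% and 5.06% for slopes and 8.81%, 9.67%, 11.5% and 4.5% for averages. Without PEG 150 mM replicate 1, 1 further PME, AT5G26810, and the PMEI-family genes AT3G36659 and AT5G46990 passed for the PEG slope. Their slopes were then 0.681, 0.731 and 0.504 (adjusted p = 0.0118, 0.00662 and 0.0476, limma). That fit called 3.14% of all genes for the PEG slope. These 3 genes are named because they changed a count, after their values were seen.

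**Figure D4:**
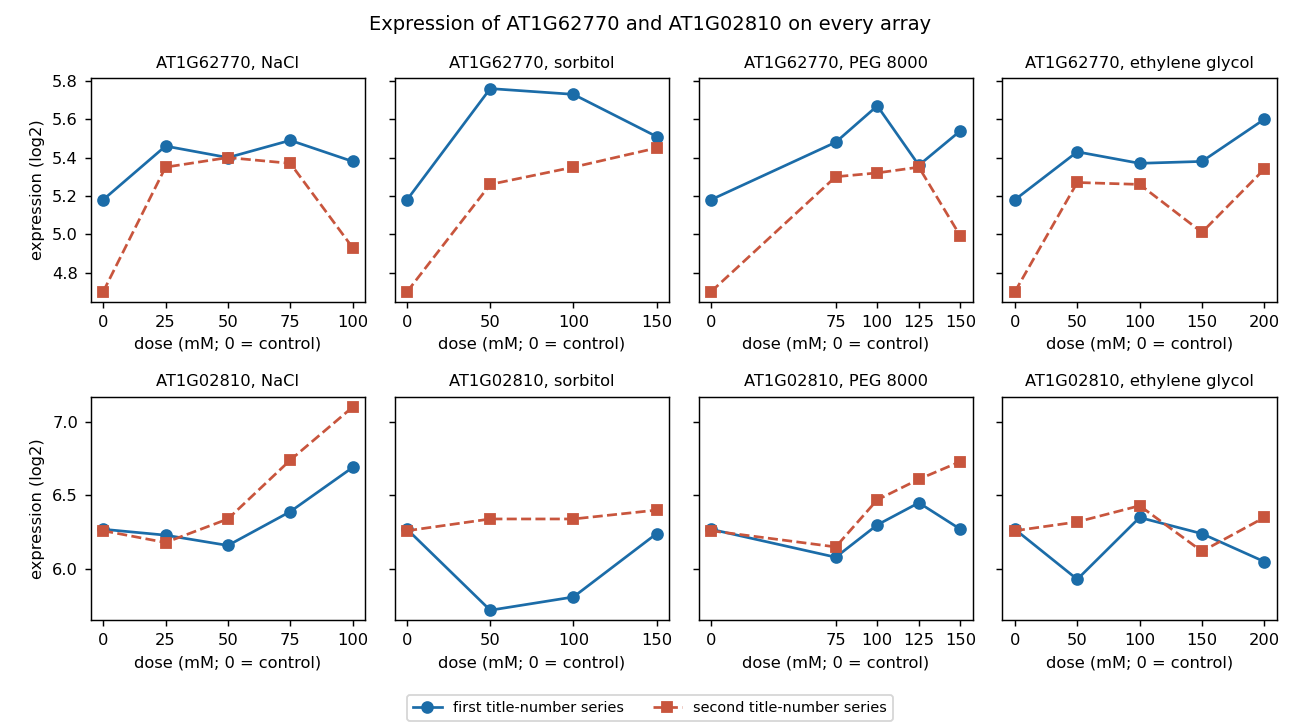
Expression (log2, y axis) of the PMEI-family gene AT1G62770 (upper row) and the PME AT1G02810 (lower row) against dose in mM (x axis, control at 0 mM), with 1 point per array and 1 line per title-number series. AT1G62770 lies above its control at every dose, and AT1G02810 reaches 6.69 and 7.10 at 100 mM NaCl.

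Other pectin genes were few on the annotated array, and none passed in limma. They comprised 4 polygalacturonases, 10 pectate lyases, 3 subtilases that can process PMEs, 1 gene for homogalacturonan methylation and 1 receptor kinase that binds pectin. Listed invertase inhibitors and pectin acetylesterases had no named probe set. The smallest p among the polygalacturonases belonged to AT5G14650, with a PEG slope of -0.17 (adjusted p = 0.408, limma). For the pectate lyases it belonged to AT3G24670, whose PEG average was -0.25 (adjusted p = 0.304, limma). The subtilase S1P, a protease that processes PMEs, averaged -0.30 under sorbitol and -0.29 under PEG (adjusted p = 0.321 and 0.256, limma). AT3G49720, of the methylation list, averaged -0.19 under sorbitol (adjusted p = 0.372, limma). The receptor kinase FER averaged -0.19 under sorbitol (adjusted p = 0.565, limma). At an unadjusted p under 0.05, each slope and average counted 0 polygalacturonases, 0 or 1 pectate lyases and 1 or 2 subtilases, against shares of all genes between 4.5% and 14.5%. The methylation gene was counted for the sorbitol average alone and the receptor kinase for none.

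Genes next to both loci were read to see whether a chromosomal neighbour shared the pattern. By RefSeq gene order, AT4G25260, another PMEI-family gene, follows AT4G25250. Its slopes were -0.35 for NaCl, 0.01 for sorbitol, -0.18 for PEG and -0.09 for ethylene glycol (adjusted p = 0.451, 0.989, 0.439 and 0.999, limma). OTP70, the next gene, had a NaCl slope of 0.53 (adjusted p = 0.321, limma) and a sorbitol slope of -0.24. Near AT5G51520 stand the PMEs AT5G51490 and AT5G51500, with NaCl slopes of -0.15 and -0.24 (adjusted p = 0.883 and 0.85, limma). The other neighbours AT5G51510, AT5G51530 and AT5G51540 had NaCl slopes of -0.07, 0.05 and -0.07. Of the 7 measured neighbours 0 passed for a slope or an average in limma, and at an unadjusted p under 0.05 there were 2 for the NaCl slope, where 9.47% of all genes were, 1 for the NaCl average, where 8.81% were, and 0 elsewhere.

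AT4G25250 and AT5G51520 moved partly together. With the mean of each series subtracted, their values correlated at r = 0.49 over 32 arrays, at 0.39 over the 16 arrays of the first series and at 0.63 over the 16 of the second. Without the controls r was 0.46. Points share arrays and normalisation, and no p is given. AT5G51520 correlated more with AT4G25260 (r = 0.56) than AT4G25250 did (r = 0.35). For AT4G25250 and AT4G25260 r was 0.05 in the first series, 0.63 in the second and 0.21 without the controls. For AT5G51520 and AT4G25260 these were 0.47, 0.70 and 0.52.

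**Figure D5:**
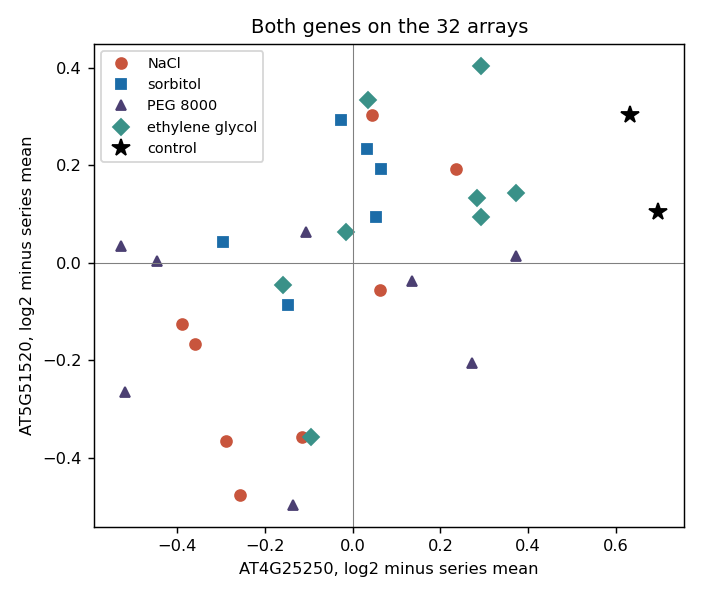
Log2 expression minus the series mean of AT4G25250 (x axis) and AT5G51520 (y axis) on 32 arrays, with a symbol for each solute and stars for the controls. The controls have the highest AT4G25250 values, and the correlation over all points is 0.49.

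The 5 named genes most alike to AT4G25250 by this measure were AT1G78260 (r = 0.75), AGL30 (r = 0.72), AT2G27480 (r = 0.72), SUB1 (r = 0.70) and AT2G17300 (r = 0.69), each over 32 arrays. AGL30 encodes a MADS-box transcription factor and SUB1 a calcium-binding protein of light signalling. AT1G78260 ran closest in size too, with log2 slopes of -0.80 for NaCl, -0.41 for sorbitol, -0.68 for PEG and -0.17 for ethylene glycol. For AT5G51520 the most alike were AT4G01140 (r = 0.64), AT1G51035 (r = 0.62), Hop2 (r = 0.61), AT5G20080 (r = 0.59) and ARLA1B (r = 0.57). Hop2 is a co-chaperone that links heat shock proteins, and ARLA1B belongs to the small GTPases. These 5 correlations were all lower than the 5 for AT4G25250. ARLA1B followed AT5G51520 at r = 0.68 in the first series and at 0.36 in the other.

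The label of root tissue was read against marker genes, of which few had a named probe set. EXPA7, an expansin of root hair cells, read between 6.57 and 8.08 over the 32 arrays. LHB1B2, a chlorophyll-binding protein of leaves, read between 2.47 and 3.62. The other 7 root and 8 shoot markers listed had no named probe set. EXPA7 averaged -0.43 under PEG and -0.30 under ethylene glycol, 0.13 under NaCl and 0.04 under sorbitol (adjusted p = 0.289, 0.999, 0.857 and 0.958, limma). Its part in the values of AT4G25250 and AT5G51520 was not tested.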

How the data were processed

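RNA of 32 root samples was read on 1-channel Affymetrix arrays, 1 array a sample. The authors deposited 1 normalised value per probe set and array, with GCRMA, Affymetrix Expression Console and Transcriptome Analysis Console named in the submitters' processing notes. The deposited values, 0.2 to 12.45, were read as log2 from their range. No source used here gives the log base or any scaling between arrays. Another base would change percentages of control and not tests. Array medians lay between 4.11 and 4.25, and every column was mapped to a sample. The number of arrays limits the precision.

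Of 28477 probe sets, 16746 listed 1 gene, 758 several and 10973 none; 16601 of the first kind matched a RefSeq gene (TAIR10.1, for names and gene order only). The brightest probe set per gene was kept, leaving 28283 entries, 16552 of them named genes. The other 11731 were probe sets that list several genes or none, each kept as its own entry. All 28283 are called genes here, so every share of all genes covers both kinds. limma 3.58.1 in R 4.3.3 was fitted with 1 mean per group, the title-number series as block, a variance trend, two-sided moderated tests and Benjamini-Hochberg adjustment over all genes at 0.05. It was also run on simulated data with independent noise between arrays and effects added for NaCl only. Such data cannot show whether the spread between the real arrays is technical, so nothing is read from that run. The pairing by series comes from the title numbers: in all 120 pairs of groups, same-series arrays deviated together (r from 0.501 to 0.767). Nothing says that arrays came from separate cultures, so the spread behind each p-value may be technical.

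Both genes, the lists and the use of the block were chosen with earlier results of these data known. Named genes were both genes, up to 4 called genes per list (otherwise the 1 with the smallest p), the neighbours and the 5 most alike genes. Alternatives were the fit without the block, quantile normalisation, median centring, no dim genes (the dimmest 25%), no trend, the compared groups alone, treated doses alone, each series alone and each array left out.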

Additional observations from a re-analysis of the deposited data

How the results depend on the processing

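Every solute average and slope of AT4G25250 kept its sign under each alternative run. The gene was chosen on such values, and all 30 treated arrays lay below their own control, so nothing is read from these signs. Its slopes over the treated doses alone moved to -0.546 for NaCl, -0.27 for sorbitol, -0.956 for PEG and -0.014 for ethylene glycol. The fit without the replicate block gave the same values with larger SE. It called 0 PMEs for a slope and 0 other PMEI-family genes for an average, against 1 each with the block, and changed no other count of the pectin lists. The PMEI count for an average was also 0 without the trend and with the compared groups alone. With 1 array left out it was 0 to 1, the PMEI count for a slope was 0 to 2 and the PME count for a slope 0 to 2. The AT4G25250 averages then ranged from -0.85 to -0.743 for NaCl, -0.75 to -0.684 for sorbitol, -0.846 to -0.719 for PEG and -0.589 to -0.486 for ethylene glycol. For AT5G51520 the sorbitol average ranged from -0.182 to 0.032 and the ethylene glycol slope from -0.0801 to 0.0221, so neither has a settled sign. Its other slopes ranged from -0.554 to -0.254 for NaCl, -0.203 to -0.0748 for sorbitol and -0.317 to -0.171 for PEG. Its other averages ranged from -0.442 to -0.228 for NaCl, -0.422 to -0.208 for PEG and -0.215 to -0.0005 for ethylene glycol. Every solute against control value rests on 1 control array in each series. Leaving out either control gave both ends of the range for the AT5G51520 ethylene glycol average, -0.215 and -0.0005. The difference between the ethylene glycol slope and the others uses all groups, so the compared groups alone gave no separate value for it.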
